A study of Sus scrofa with 61 samples.

Results

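The heat shock proteins are chaperones that bind unfolded or strained proteins. Here 10 of their genes were followed in the longissimus muscle of pig fetuses late in gestation: the small heat shock proteins HSPB1, HSPB2, HSPB3, HSPB6, HSPB7, HSPB8 and CRYAB, and the large chaperones HSPA8, HSP90AA1 and HSPA5. The members were the probes whose gene name on the array, or in the gene lists of the study, is one of these 10 symbols. This naming rule found 20 of the 60305 probes of the array, for 8 of the 10 genes. HSPB1, printed on the array as Hsp27, and HSPB3, printed as an unnamed locus, were found through RefSeq accessions and gene identifiers, which added 11 probes to reach 31 (2 of HSPB1, 1 of HSPB3, 1 of HSPB6 and 7 of HSPB8). All 31 probes were well above background on all 61 arrays, none was saturated, and all passed the filter on dim probes. Counts of genes are given for the 8 genes found by name, with HSPB1 and HSPB3 beside them. HSPB2 was found only through the gene lists of the study. Those lists hold probes chosen in these same fetuses for an age change that differed by genotype or by a parent's genotype. Counts that include HSPB2 are therefore not independent of that choice.

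Muscle RNA of 61 male fetuses taken by caesarean was labelled with Cy3 and hybridized to a 1-colour porcine oligonucleotide array, 1 array per fetus. The fetuses were Large White (LW), Meishan (MS) or reciprocal crosses, where LWMS was carried by Meishan sows and sired by Large White boars and MSLW was carried by Large White sows and sired by Meishan boars, at day 90 or day 110 of gestation. Day 90 had 8 fetuses per genotype, and day 110 had 9 of LW, 7 of MS, 8 of LWMS and 5 of MSLW. The breeds are extremes for piglet mortality at birth, and the comparison of ages and breeds addresses the maturation of muscle before birth. No fetus was treated. Sows were inseminated with mixed semen, so that a litter could hold purebred and crossbred fetuses. The sow of each fetus is not in the labels, so littermates count as separate fetuses here and the p-values measure the spread between fetuses only.

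Small heat shock proteins share the alpha-crystallin domain, form oligomers and hold damaged proteins in a soluble state without using ATP. Several of them sit on the Z-disc and on actin, desmin or titin filaments of striated muscle, where they shield the contractile apparatus. The large chaperones HSPA8 and HSP90AA1 fold proteins in the cytosol with ATP, among them myosin, and HSPA5 does so in the endoplasmic reticulum, where secreted and membrane proteins such as collagens are made.

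The relatedness of the small heat shock proteins is visible in the 60-base probes themselves. The sequences printed are those of the 3 probes that lie on the same stretch of CRYAB, HSPB6 and HSPB1, as the array design gives them, 5′ to 3′. Capitals mark the bases that are identical in all 3 when they are aligned without gaps. The probes shown of CRYAB and HSPB1 are not their brightest.
CRYAB: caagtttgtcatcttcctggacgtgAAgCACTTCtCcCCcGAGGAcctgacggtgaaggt
HSPB6: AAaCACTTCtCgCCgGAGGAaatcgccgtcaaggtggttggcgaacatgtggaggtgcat
HSPB1: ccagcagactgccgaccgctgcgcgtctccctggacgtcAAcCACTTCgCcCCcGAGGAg
The common window was 21 bases long and 16 of them were identical. Over their longer pairwise overlaps, 33 of 46 bases were identical between CRYAB and HSPB1 and 26 of 35 between CRYAB and HSPB6, with no unbroken shared run above 10 bases. Each of the 3 probes has at least 1 reading frame without a stop codon.

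In these arrays 9 of 9 skeletal muscle fibre genes were well above background on all 61 arrays, among them ACTA1, the skeletal muscle actin, and CKM, the muscle creatine kinase. The scanner marked 34347 to 45684 probes per array as well above background. The arrays lay on 8 slides with 6 to 8 of the 8 groups on each. MSLW replicate 2 of day 90 stood apart: the SD over probes of its deviations from the group means was 0.705, against 0.271 to 0.450 on the 60 other arrays. It was the highest fetus of its group for 8 of the 10 genes, all but HSPA8 and HSPA5. Values are given with that array, and no call for any of the 10 genes in any of the 11 comparisons changed without it. Values are normalized signals on the log2 scale, a difference of 1 is a doubling, and a probe's level cannot be set against another probe's. Where a gene had several probes, that with the highest mean signal among those found by name is called its main probe (for HSPB1 and HSPB3, among those added). A brighter probe of HSPB6 and of HSPB8 was added through its gene identifier and is given with the other probes. In these samples of whole muscle, fewer cells of a type and less RNA per cell cannot be told apart.

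Between day 90 and day 110, HSPB7, CRYAB, HSPB3 and HSPB6 rose and HSPA5 fell in all 4 genotypes, while the falls of HSPB2 and HSPA8 depended on how the arrays were scaled. Of the 8 genes found by name, HSPB6, HSPB7, HSPB8 and CRYAB rose in LW and HSPB2, HSPA8 and HSPA5 fell, at an adjusted p below 0.01 (limma, moderated two-sided test with Benjamini-Hochberg adjustment over 42436 probes), 7 of 8 where 45.3% of all probes passed (21.8% upward and 23.5% downward). In MS, 3 rose and 4 fell, 7 of 8 against 56.7% of all probes (28.6% upward and 28.1% downward). In LWMS, 3 rose and 3 fell, 6 of 8 against 50.9% (25.1% upward and 25.7% downward). Counts in MSLW were also 3 and 3, 6 of 8 against 44.6% (20.8% upward and 23.8% downward). The median size of the difference was 0.59 in LW and 0.84 in MS over these 8 genes, and 0.35 and 0.50 over all probes. HSPB1 and HSPB3 also rose in LW, MS and LWMS, and HSPB3 rose in MSLW. Some of these directions differed between normalizations, and which is nearer to the tissue was not tested. When the arrays were scaled to their 75th percentile instead, the median age difference over all probes of MS went from 0.03 to 0.13. Of the 10 genes, HSPB6 and HSPB3, whose main probes were the dimmest, moved least in MS. The falls of HSPB2, HSPA8 and HSP90AA1 shrank or changed sign, as given beside each gene below. The plot of the values of every fetus shows the 10 genes in the 8 groups.

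**Figure D1:**
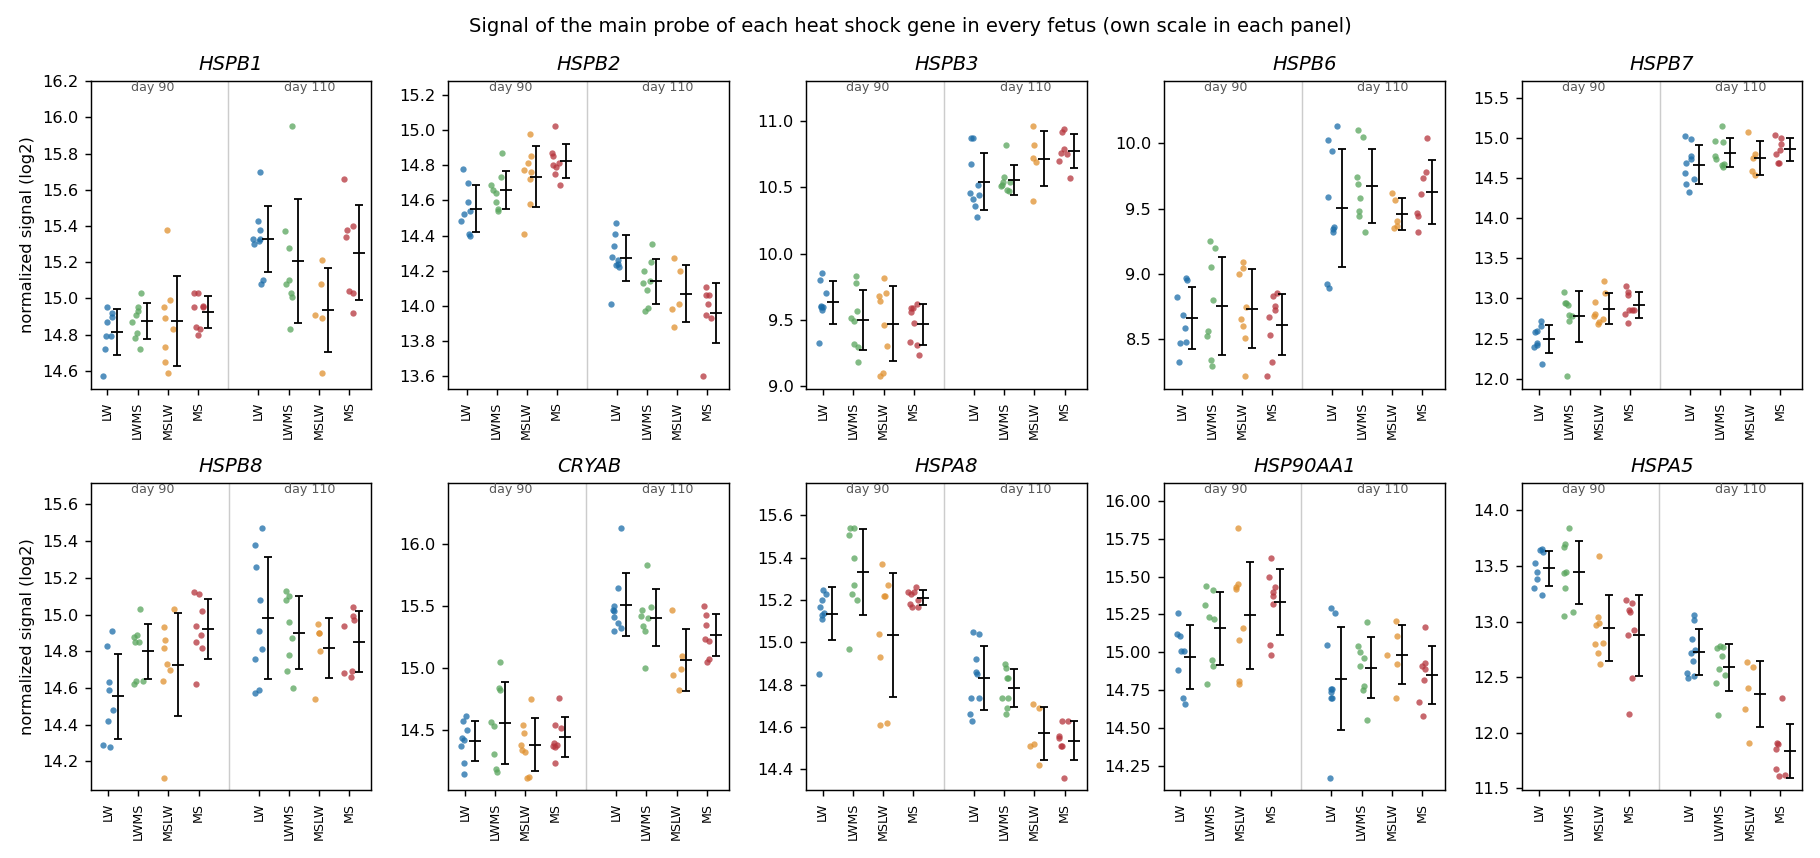
Normalized log2 signal of the main probe of each gene in every fetus (points), by genotype and day of gestation, with the mean and SD of each group in black and a scale of its own in each panel. HSPB7 and HSPB3 show a clear step between the ages in all 4 genotypes, HSPB2 and HSPA5 lie lower at day 110, and HSPB8 and HSP90AA1 overlap between the ages.

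HSPB7, the cardiovascular small heat shock protein that binds filamin in striated muscle, had the largest age difference of the 10 genes. In LW its log2 signal ranged from 12.18 to 12.72 (median 12.51) at day 90 and from 14.32 to 15.02 (median 14.69) at day 110. In MS it ranged from 12.69 to 13.15 (median 12.86) and from 14.69 to 15.04 (median 14.85). In LWMS it ranged from 12.03 to 13.08 (median 12.85) and from 14.63 to 15.14 (median 14.76). In all of these genotypes every fetus of day 110 lay above every fetus of day 90. In MSLW it ranged from 12.68 to 13.22 (median 12.79) at day 90, and the 5 fetuses of day 110 were at 14.80, 14.58, 14.54, 15.07 and 14.75, again without overlap. The rise was 4.5-fold in LW (log2 difference 2.17, 95% interval 1.96 to 2.38, adjusted p = 2.51e-25), 3.83-fold in MS (1.94, 1.72 to 2.16), 4.12-fold in LWMS (2.04, 1.83 to 2.25) and 3.68-fold in MSLW (1.88, 1.64 to 2.12). Day 110 was above day 90 on every slide that held both ages, 7 of 7 slides in LW and in MS, 8 of 8 in LWMS and 5 of 5 in MSLW. Its 4 group means at day 110 lay within 1 SD of their neighbours in the order MS, LWMS, MSLW and LW.

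CRYAB, the alpha-B crystallin that binds desmin and titin, rose in all 4 genotypes. In LW the log2 signal was 14.14 to 14.61 (median 14.42) at day 90 and 15.30 to 16.13 (median 15.46) at day 110. In MS it was 14.23 to 14.76 (median 14.38) and 15.05 to 15.50 (median 15.23). In LWMS it was 14.16 to 15.05 (median 14.54) and 15 to 15.83 (median 15.41). The ages did not overlap in LW and MS, and in LWMS 7 of 8 fetuses of day 110 lay above all fetuses of day 90. The MSLW fetuses of day 110 were at 14.94, 15.10, 14.82, 14.99 and 15.47, above the highest of day 90, 14.75. The rise was 1.1 on the log2 scale in LW (SE 0.11, adjusted p = 7.63e-13), 0.82 in MS (SE 0.12, adjusted p = 1.64e-08), 0.85 in LWMS (SE 0.11, adjusted p = 3.42e-09) and 0.69 in MSLW (SE 0.13, adjusted p = 9.58e-06). With the arrays scaled to their 75th percentile these became 1.48, 1.49, 1.35 and 1.22. The other 2 probes of CRYAB rose in each genotype as well, by 0.79 to 1.38.

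HSPB2, which oligomerizes with HSPB3 and binds the myotonic dystrophy protein kinase DMPK, went the other way. Its gene lies beside CRYAB on chromosome 9, where the RefSeq gene models of both overlap in the Sscrofa11.1 assembly. In LW its log2 signal was 14.40 to 14.78 (median 14.53) at day 90 and 14.01 to 14.47 (median 14.26) at day 110. MS fetuses had 14.69 to 15.02 (median 14.80) and 13.60 to 14.11 (median 14.01). In LWMS it was 14.54 to 14.87 (median 14.65) and 13.97 to 14.35 (median 14.14). The ages overlapped in LW only. The MSLW fetuses were at 14.41 to 14.98 (median 14.76) at day 90 and at 13.88, 13.98, 14.27, 14.20 and 14.01 at day 110. HSPB2 fell by 0.28 in LW (SE 0.07, adjusted p = 5.64e-04), by 0.86 in MS (SE 0.07, adjusted p = 2.68e-15), by 0.52 in LWMS (SE 0.07, adjusted p = 9.24e-09) and by 0.66 in MSLW (SE 0.08, adjusted p = 6.27e-10), but with the arrays scaled to their 75th percentile the differences were 0.10, -0.26, -0.04 and -0.19 in the same order, and of these only that of MS passed (adjusted p = 0.00314). On the quantile scale HSPB2 was lower at day 110 on every slide that held both ages.

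The signal of CRYAB less that of HSPB2 in the same fetus depended less on the scaling than either alone. Scaling to the 75th percentile divides an array by a common factor, which cancels in such a difference, so this is partly arithmetic. On the quantile scale this difference of logs ranged from -0.74 to 0.31 over the 32 fetuses of day 90 and from 0.55 to 1.66 over the 29 fetuses of day 110, so the ages did not overlap. It grew by 1.38 in LW and 1.69 in MS, and by 1.37 and 1.35 in the crosses LWMS and MSLW, and with the arrays scaled to their 75th percentile by 1.38, 1.75, 1.39 and 1.41. Whether these changes differ between genotypes was not tested, and they show unequal change of a pair of probes, not the change of either gene alone. HSPB2 rests on a single probe, which the study's lists name and the array prints under a clone accession.

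HSPB3, the partner of HSPB2 in oligomers of muscle, rose in all 4 genotypes. Its log2 signal in LW was 9.33 to 9.86 (median 9.60) at day 90 and 10.28 to 10.87 (median 10.46) at day 110. MS fetuses had 9.24 to 9.62 (median 9.52) and 10.57 to 10.94 (median 10.76). In LWMS it was 9.19 to 9.83 (median 9.51) and 10.47 to 10.82 (median 10.53). No fetus of day 110 was as low as the highest fetus of day 90 in these genotypes. The MSLW fetuses were at 9.08 to 9.82 (median 9.55) at day 90, and 10.96, 10.69, 10.40, 10.72 and 10.82 at day 110. The rise was 0.91 in LW (SE 0.10, adjusted p = 3.39e-12), 1.31 in MS (SE 0.10, adjusted p = 4.50e-17), 1.06 in LWMS (SE 0.10, adjusted p = 4.22e-14) and 1.25 in MSLW (SE 0.11, adjusted p = 2.34e-14). Scaling to the 75th percentile gave 0.93, 1.34, 1.06 and 1.28. So the 2 partner genes moved in opposite directions under quantile normalization, and under scaling to the 75th percentile HSPB3 rose in every genotype while HSPB2 passed in MS only.

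HSPB6, also called Hsp20, which is phosphorylated by protein kinase A in muscle, rose in all 4 genotypes. Its log2 signal was 8.33 to 8.97 (median 8.63) at day 90 and 8.89 to 10.13 (median 9.36) at day 110 in LW. It was 8.21 to 8.85 (median 8.69) and 9.32 to 10.04 (median 9.61) in MS. It was 8.30 to 9.25 (median 8.68) at day 90 and had a lowest value of 9.32 and a median of 9.63 at day 110 in LWMS. The ages overlapped in LW only, where 7 of 9 fetuses of day 110 lay above all of day 90. In MSLW it was 8.21 to 9.09 (median 8.70) at day 90, and 9.62, 9.40, 9.37, 9.57 and 9.35 at day 110. The rise was 0.85 in LW (SE 0.15), 1.02 in MS (SE 0.16), 0.92 in LWMS (SE 0.15) and 0.73 in MSLW (SE 0.17), with adjusted p of 3.27e-04 or lower. The other probe of HSPB6, named through its gene identifier, rose by 0.80 to 1.03. Scaling moved these values little, to 0.84, 1.00, 0.92 and 0.74.

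HSPB1, also called Hsp27, which binds actin, rose less. In LW its log2 signal was 14.57 to 14.95 (median 14.83) at day 90 and 15.08 to 15.70 (median 15.33) at day 110, without overlap. In MS it was 14.80 to 15.03 (median 14.95) and 14.92 to 15.66 (median 15.34), and in LWMS 14.72 to 15.03 (median 14.89) and 14.83 to 15.95 (median 15.09). The MSLW fetuses were at 14.59 to 15.38 (median 14.86) at day 90, and 15.21, 15.08, 14.59, 14.91 and 14.89 at day 110. The rise was 0.52 in LW (SE 0.10, adjusted p = 2.45e-05), 0.33 in MS (SE 0.11, adjusted p = 0.00759) and 0.33 in LWMS (SE 0.11, adjusted p = 0.00601). The difference in MSLW was 0.06 (SE 0.12, 95% interval -0.19 to 0.30, adjusted p = 0.706). The call in MS did not hold with the median signal of the spot (0.27, adjusted p = 0.0369), the deposited values (0.27, adjusted p = 0.0366), another background correction (0.28, adjusted p = 0.0240) or no filter (0.33, adjusted p = 0.0112), and that in LWMS did not hold with its own groups alone in the fit (adjusted p = 0.0222). With the arrays scaled to their 75th percentile HSPB1 rose in all 4 genotypes, by 0.61 in MSLW to 1.02 in MS. The second probe of HSPB1, which is the one printed above, gave rises of 0.60 in LW, 0.63 in MS and 0.49 in LWMS and a difference of 0.31 in MSLW that did not pass.

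HSPB8, which works with the co-chaperone BAG3 to hand damaged filamin to autophagy, was called in LW only. Its log2 signal in LW was 14.28 to 14.91 (median 14.54) at day 90 and 14.57 to 15.47 (median 14.91) at day 110, and the ages overlapped. In MS it was 14.62 to 15.12 (median 14.91) and 14.66 to 15.04 (median 14.94), and in LWMS 14.62 to 15.03 (median 14.85) and 14.60 to 15.13 (median 14.91). In MSLW it was 14.11 to 15.03 (median 14.78), and 14.54, 14.90, 14.95, 14.80 and 14.90 at day 110. The rise in LW was 0.42 (SE 0.11, adjusted p = 8.26e-04). The differences were -0.07 in MS (95% interval -0.30 to 0.17), 0.10 in LWMS (-0.13 to 0.33) and 0.09 in MSLW (-0.17 to 0.35), and none of these passed. Under scaling to the 75th percentile HSPB8 rose in all 4 genotypes, by 0.81, 0.62, 0.63 and 0.62. The age change in MS less that in LW was -0.49 (SE 0.16) and did not pass (adjusted p = 0.0311).

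The 8 probes of HSPB8 all rose in LW, by 0.40 to 0.75. In MS they spread from -0.08 to 0.67 and 2 of 8 passed, in LWMS from 0.10 to 0.68 with 3 of 8, and in MSLW from 0.02 to 0.42 with none of 8. They are not independent readings, since 4 pairs of them share 28 to 54 bases. The probe with the largest rises shares no run of 15 or more bases with the other 7, and gave 0.75 in LW, 0.67 in MS, 0.68 in LWMS, and a value for MSLW of 0.42 that did not pass (adjusted p = 0.0142). The age change of HSPB8 outside LW thus differed by probe. The plot of the age difference by genotype shows the main probes side by side.

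**Figure D2:**
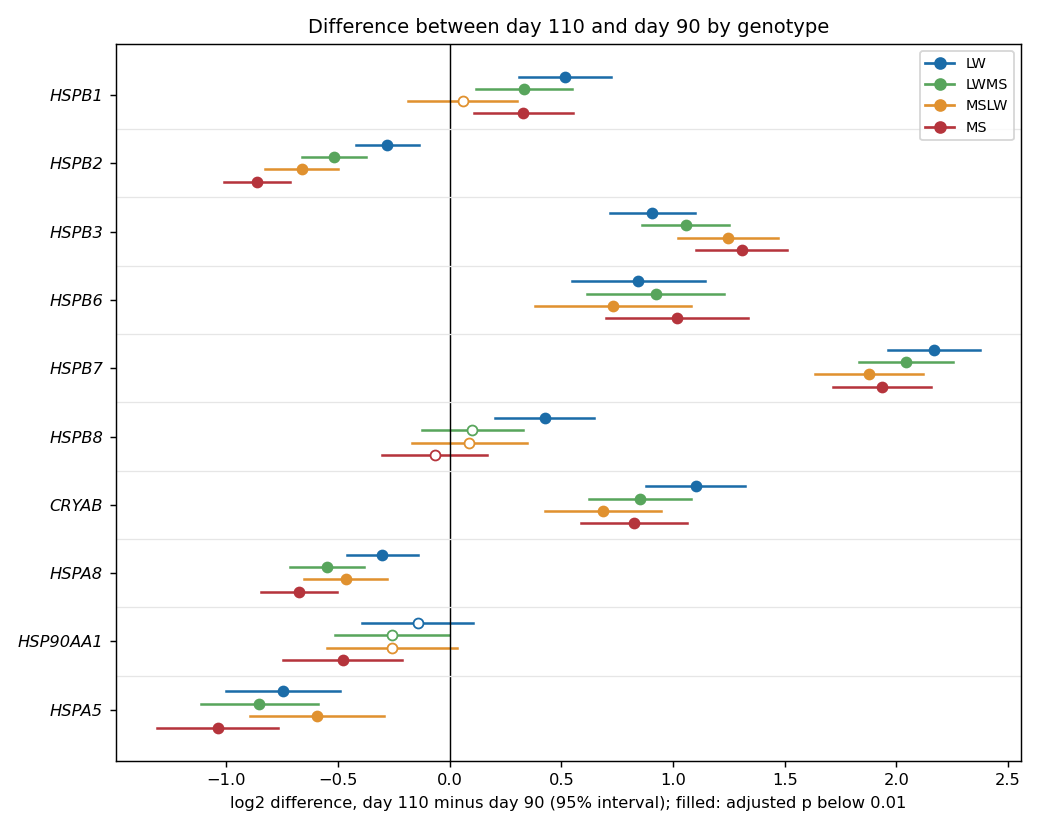
Difference in log2 signal between day 110 and day 90 (x axis) for the main probe of each gene in the 4 genotypes, with 95% intervals and filled points at an adjusted p below 0.01. HSPB7, CRYAB, HSPB3 and HSPB6 lie right of 0 and HSPB2, HSPA8 and HSPA5 left of 0 in all 4 genotypes, while HSPB8 passed in LW only and HSP90AA1 in MS only. Scaled to the 75th percentile, HSPB2 in LW, HSPA8 in LW and MSLW, HSPB8 in MS and HSP90AA1 in all 4 genotypes changed sign.

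HSPA5, the BiP chaperone of the endoplasmic reticulum, fell in all 4 genotypes. In LW its log2 signal was 13.24 to 13.65 (median 13.49) at day 90 and 12.49 to 13.06 (median 12.72) at day 110. In MS it was 12.17 to 13.19 (median 13.00) and 11.61 to 12.31 (median 11.85), and in LWMS 13.05 to 13.84 (median 13.45) and 12.16 to 12.78 (median 12.63). The ages were apart in LW and LWMS, and in MS 6 of 7 fetuses of day 110 lay below all of day 90. MSLW fetuses had 12.62 to 13.59 (median 12.89), and 12.40, 11.91, 12.64, 12.21 and 12.59 at day 110. HSPA5 fell by 0.75 in LW (SE 0.13, adjusted p = 1.24e-06), by 1.04 in MS (SE 0.14, adjusted p = 1.49e-09), by 0.85 in LWMS (SE 0.13, adjusted p = 1.06e-07) and by 0.59 in MSLW (SE 0.15, adjusted p = 6.12e-04), and day 110 was lower on every slide that held both ages. Under scaling to the 75th percentile the values were -0.48, -0.78, -0.57 and -0.35, and that of MSLW did not pass (adjusted p = 0.0397). All 3 probes of HSPA5 fell in each genotype, by 0.45 to 1.04, though 2 of the 3 share 49 bases.

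HSPA5 and the fibroblast genes of the samples both fell with age, as did 23.5% of all probes in LW and 28.1% in MS. All 6 fibroblast markers (COL1A1, COL1A2, COL3A1, DCN, LUM and PDGFRA) were well above background on all arrays and all 6 fell with age in LW and in MS. The log2 of their summed signal ranged from 18.62 to 18.99 at day 90 and from 17.13 to 17.84 at day 110 in LW, and from 18.77 to 18.91 and from 16.45 to 16.83 in MS. In LWMS the ranges were 18.67 to 18.91 and 16.77 to 17.64, and in MSLW 18.69 to 19.03 and 16.99 to 17.70. Of 5 endothelium markers, 3 fell and 1 rose in LW and in MS. The part of these shifts in the falls of HSPA5, HSPA8 and HSPB2 was not tested.

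HSPA8, the constitutive Hsc70 of the cytosol, fell in all 4 genotypes under quantile normalization. In LW its log2 signal was 14.85 to 15.25 (median 15.16) at day 90 and 14.63 to 15.05 (median 14.85) at day 110. In MS it was 15.17 to 15.26 (median 15.22) and 14.36 to 14.63 (median 14.55), and in LWMS 14.97 to 15.54 (median 15.33) and 14.66 to 14.90 (median 14.79). The ages were apart in MS and LWMS. MSLW fetuses had 14.61 to 15.37 (median 15.13), and 14.42, 14.51, 14.71, 14.52 and 14.69 at day 110. The log2 differences were -0.30 in LW (SE 0.08, adjusted p = 0.00104), -0.68 in MS (SE 0.09), -0.55 in LWMS (SE 0.08) and -0.47 in MSLW (SE 0.09), but under scaling to the 75th percentile they were 0.08, -0.03, -0.02 and 0.04, with adjusted p from 0.438 to 0.822. The second probe of HSPA8 gave -0.18, -0.36, -0.31 and -0.24, of which only the value in MS passed.

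HSP90AA1, the inducible Hsp90 of the cytosol that folds myosin together with UNC45B, was called in MS only. Its log2 signal in MS was 14.98 to 15.62 (median 15.38) at day 90 and 14.58 to 15.17 (median 14.89) at day 110, a log2 difference of -0.48 (SE 0.13, adjusted p = 0.00129) that turned to 0.20 under scaling to the 75th percentile (adjusted p = 0.174). In LW it was 14.66 to 15.26 (median 15.01) and 14.17 to 15.29 (median 14.76), in LWMS 14.79 to 15.44 (median 15.23) and 14.55 to 15.20 (median 14.94). In MSLW it was 14.79 to 15.82 (median 15.29) at day 90, and 14.92, 14.98, 15.21, 15.11 and 14.70 at day 110. The ages overlapped in every genotype. The differences were -0.14 in LW (95% interval -0.39 to 0.11), -0.26 in LWMS (-0.51 to -0.00) and -0.26 in MSLW (-0.55 to 0.03), none past the threshold.

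HSP90AA1 has 8 probes and they did not move together, which is why 3 of them are printed, in lower case as no base is singled out. The first is the main probe, the second gave the highest value of MS over LW at day 90, and the last is on the array under 2 probe names.
Main probe: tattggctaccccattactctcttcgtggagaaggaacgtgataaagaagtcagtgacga
Second probe: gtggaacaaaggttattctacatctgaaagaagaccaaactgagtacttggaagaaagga
Twin probe: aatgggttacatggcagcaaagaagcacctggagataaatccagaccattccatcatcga
The twin probes differed by a median of 0.04 and by at most 0.23 on the log2 scale over the 61 fetuses, which is the error of a repeated measurement on these arrays. Their age differences were 0.13 and 0.14 in LW and -0.17 and -0.13 in MS, and none passed. Over all 8 probes the age difference ranged from -0.14 to 0.43 in LW, where 1 rose, and from -0.48 to 0.23 in MS, where the main probe alone passed. In LWMS the range was -0.26 to 0.21 and in MSLW -0.26 to 0.08, with no probe past the threshold. The spread between probes of this gene was thus larger than the error of the twin probes. The plot of all probes shows this beside the other genes.

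**Figure D3:**
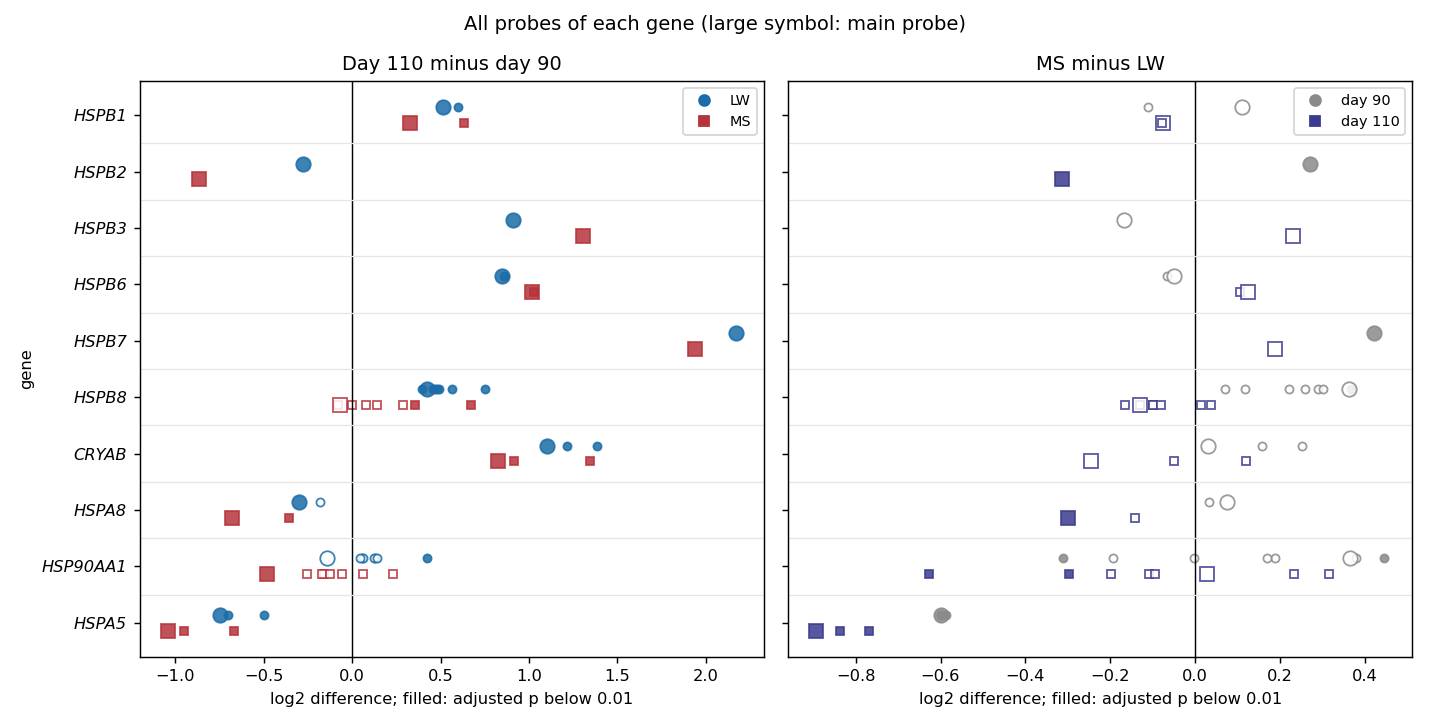
Log2 difference of every probe of each gene (large symbols for the main probe, filled at an adjusted p below 0.01), between the ages in LW and MS on the left and between MS and LW at each age on the right. All probes of CRYAB lie right of 0 and all probes of HSPA5 left of 0 on the left-hand side, whereas those of HSP90AA1 lie on both sides of 0 in all 4 comparisons.

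Between the breeds, HSPA5 differed most. At day 90, 3 of the 8 genes found by name passed, where 12.8% of all probes did (6.23% higher in MS and 6.61% lower): HSPB2 and HSPB7 were higher in MS and HSPA5 was lower. At day 110, 3 of 8 passed where 29% of all probes did (13.7% higher in MS and 15.2% lower), and HSPB2, HSPA8 and HSPA5 were lower in MS, of which HSPB2 and HSPA8 did not pass with the arrays scaled to their 75th percentile. HSPB1 and HSPB3 did not pass at either age. All MS fetuses lay below all LW fetuses for HSPA5 at both ages, with values given above. HSPA5 was 1.51-fold lower in MS at day 90 (log2 -0.60, SE 0.13, adjusted p = 4.38e-04), and 1.86-fold lower at day 110 (log2 -0.89, SE 0.13, adjusted p = 2.01e-07). All 3 of its probes passed at both ages, with log2 differences of -0.60 to -0.59 at day 90 and -0.89 to -0.77 at day 110. The array of MS lay below that of LW on 8 of 8 slides at day 90 and on 6 of 6 at day 110. Of the 6 fibroblast genes, none differed between the breeds at day 90 (limma, adjusted p below 0.01) and 5 were lower in MS at day 110.

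HSPB2 was 0.27 higher in MS at day 90 (SE 0.07, adjusted p = 0.00416) and lower by a log2 difference of -0.31 at day 110 (SE 0.07, adjusted p = 4.23e-04), but neither passed with the arrays scaled to their 75th percentile (0.26, adjusted p = 0.0120, and -0.10, adjusted p = 0.291). Of the 8 genes it was the 1 with an age change that differed by breed, where 5.95% of all probes passed (2.56% more positive in MS and 3.39% more negative), with a value in MS less LW of -0.58 (SE 0.10, adjusted p = 7.57e-05). Its probe was found through lists that the study chose for such differences in these fetuses, so this call is not an independent result. With the arrays scaled to their 75th percentile this value was -0.36 and did not pass (adjusted p = 0.0170), and the share of positive calls among all probes went from 43% to 61%. With the LW and MS fetuses alone in the fit, HSPA8 passed as well (-0.38, adjusted p = 0.00558). Its second probe gave -0.17 with all groups in the fit and did not pass.

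HSPB7 was 1.34-fold higher in MS at day 90 (log2 0.42, SE 0.11, adjusted p = 0.00222), where 7 of 8 MS fetuses lay above all LW fetuses and MS was the higher on 8 of 8 slides. At day 110 the difference was 0.19 (95% interval -0.02 to 0.40) and did not pass, although under scaling to the 75th percentile it was 0.48 (adjusted p = 7.52e-04). HSPA8 was 1.23-fold lower in MS at day 110 (log2 -0.30, SE 0.08, adjusted p = 0.00276), and all 7 MS fetuses lay below all LW fetuses, though the highest of the former and the lowest of the latter were both at 14.63 after rounding. That value was -0.05 under scaling to the 75th percentile (adjusted p = 0.675). The second probe of HSPA8 gave -0.14 at day 110 and did not pass, nor did the median over both probes (-0.22, limma, adjusted p = 0.04997). With the slide as a block, HSPB8 (0.36, adjusted p = 0.00896) and HSP90AA1 (0.37, adjusted p = 0.00310) were also higher in MS at day 90, which brought the count to 5 of 8. Of the 8 probes of HSPB8, 1 other passed at day 90 without the block (0.37, adjusted p = 0.00744).

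**Figure D4:**
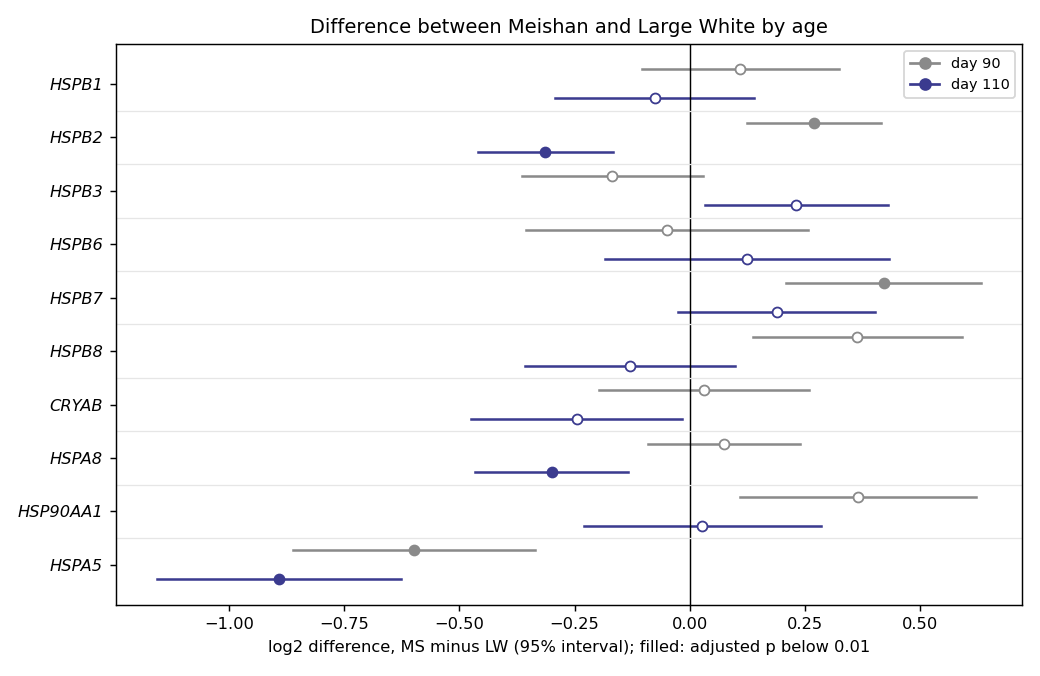
Difference in log2 signal between MS and LW (x axis) for the main probe of each gene at day 90 and day 110, with 95% intervals and filled points at an adjusted p below 0.01. HSPA5 lies left of 0 at both ages, and HSPB2 lies right of 0 at day 90 and left of 0 at day 110.

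The probes of HSP90AA1 gave opposite breed differences. At day 90 the second probe was 0.45 higher in MS (adjusted p = 6.18e-04), while another probe of the gene was lower (log2 -0.31, adjusted p = 0.00627). At day 110 the latter was lower in MS by a log2 difference of -0.63 (adjusted p = 5.46e-08), as was a probe that shares 20 bases with it (-0.30, adjusted p = 2.01e-04), and the other 6 probes lay between -0.20 and 0.32 and did not pass. A breed difference of HSP90AA1 as a gene cannot be given from these probes.

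In the crosses, the question was whether the sire's or the dam's breed mattered. Between MSLW and LWMS, 0 of the 8 genes passed at day 90, where 0.5% of all probes did, and 0 of 8 at day 110, where 0.912% did (limma; at an unadjusted p below 0.05 there were 2 genes at each age, HSPA8 and HSPA5 at day 90 and CRYAB and HSPA8 at day 110). The largest of these differences was that of HSPA5 at day 90, -0.50 in MSLW less LWMS (SE 0.13, adjusted p = 0.0466). At day 90 the means of HSPA5 ordered as LW 13.48, LWMS 13.44, MSLW 12.94 and MS 12.88, and the gap between LWMS and MSLW alone was beyond the larger SD of its pair. At day 110 the order was LW 12.73, LWMS 12.59, MSLW 12.35 and MS 11.84, and the gap from MSLW to MS alone was beyond it.

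In a model of the dam's and the sire's breed with age, the age change of 1 of the 8 genes differed by the sire's breed, HSPB2, where 0.462% of all probes passed (0.325% in its direction). Its age change was more negative with a MS sire (-0.36, SE 0.07, adjusted p = 0.00343), where the share of positive calls among all probes went from 29.6% to 48.1% under scaling to the 75th percentile, and the call did not hold with the median signal of the spot (-0.34, adjusted p = 0.0192), with the deposited values (-0.34, adjusted p = 0.0195) or under scaling to the 75th percentile (-0.26, adjusted p = 0.0703). By the dam's breed, 0 of 8 passed, where 3.05% of all probes did, 1.16% upward and 1.89% downward (limma; 3 genes at an unadjusted p below 0.05, HSPB2, HSPB8 and HSPA8). The value of HSPB2 for the dam's breed was -0.22 (SE 0.07, adjusted p = 0.0487). Together the terms of sire and dam make up the contrast of MS less LW given above. The call for the sire is therefore not a result separate from that contrast. Nor is it independent of the study's lists, through which the probe of HSPB2 was found. In MSLW less LWMS, HSPB2 differed by 0.07 at day 90 and by -0.07 at day 110, and neither passed. Whether the effects of sire and dam on HSPB2 differ from each other was not tested.

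After subtracting the mean of each of the 8 groups, 6 of 45 pairs of genes were correlated over the 61 fetuses at an adjusted p below 0.01 (two-sided permutation test with 100000 resamples, Benjamini-Hochberg over 45 pairs), all positively and by Pearson's r of 0.42 to 0.46. Such values are not rare on these arrays: 4.77% of all pairs of annotated genes had an r of at least 0.42 in size. By rank correlation, 0 of 45 pairs passed (permutation test, lowest adjusted p 0.0111). They were HSPB1 with HSPB3 (r = 0.46, rho = 0.38), HSPB1 with CRYAB (r = 0.45, rho = 0.32), HSPB1 with HSPB6 (r = 0.42, rho = 0.44), HSPB6 with HSPB7 (r = 0.42, rho = 0.39), HSPB3 with HSPB8 (r = 0.42, rho = 0.42) and HSPB2 with HSPA8 (r = 0.46, rho = 0.45). Of these, 5 join small heat shock proteins to each other. Their permutation p ran from 2.4e-04 to 7.9e-04 for r and from 3.60e-04 to 0.0115 for rho, before adjustment. Without the 2 fetuses farthest from the median of the first gene, r was 0.33 to 0.43. No pair passed without MSLW replicate 2 of day 90 alone, when r of these 6 pairs was 0.39 to 0.44. The fetuses share slides, litters and an array-wide scaling, and the part of litters in the correlations was not tested. With the arrays scaled to their 75th percentile 8 pairs passed, among them all 6 pairs named above. With the effect of the slide removed 6 pairs passed, of which 5 were among those named. HSPB1 with HSPB6 then did not pass (r = 0.34) and HSPB3 with CRYAB did (r = 0.50).

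**Figure D5:**
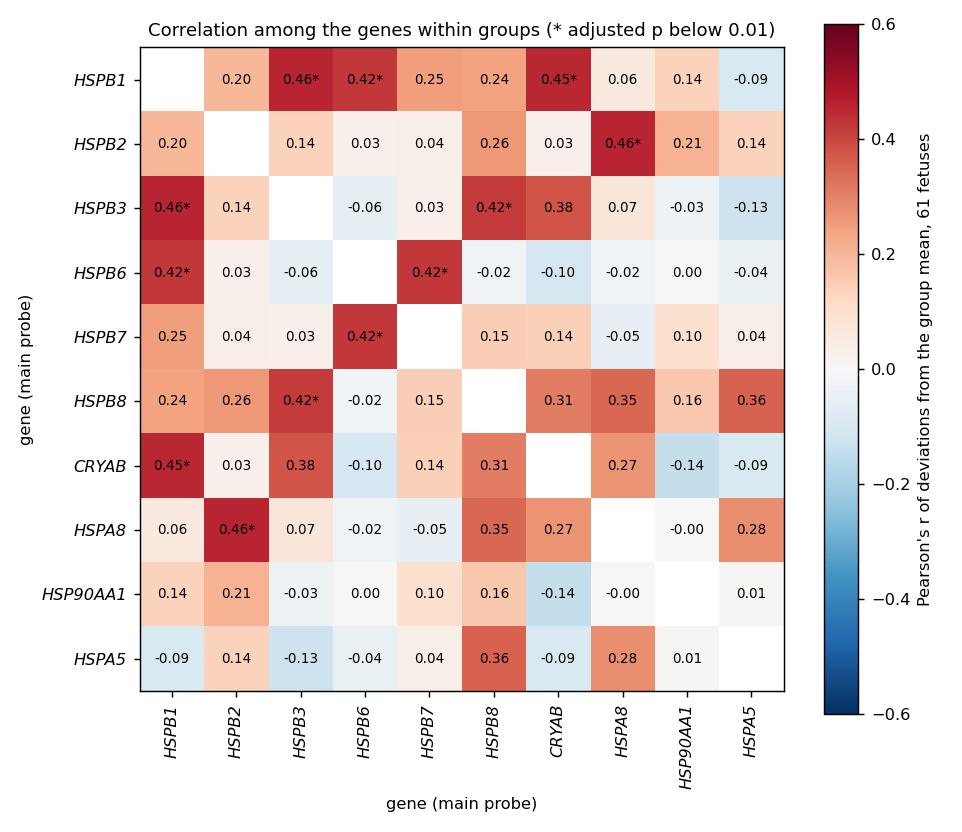
Pearson's r between the main probes of each pair of genes over 61 fetuses, after subtracting the mean of each group, with colour from -0.6 (blue) to 0.6 (red) and a star at an adjusted p below 0.01. The starred pairs lie mostly among the small heat shock proteins, which make up 7 of the 10 genes, and HSP90AA1 has none.

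Likeness was also taken over 9494 annotated genes on the array, as the correlation of deviations from the group means over 61 fetuses, with no test. The effect of the slide was not removed. The genes most like CRYAB were DNAJA4 (r = 0.62), a co-chaperone of Hsp70, FGL2 (0.56) and LLGL2 (0.55). Those most like HSPB8 were USP28 (0.69), ANKRD1 (0.69), a stretch-responsive protein of the sarcomere, and HBEGF (0.63). HSPB7 was most like CDC37L1 (0.51), a relative of the Hsp90 co-chaperone CDC37, then ITIH4 (0.48) and the Z-disc gene LDB3 (0.48). HSPA5 was most like SCD (0.62), the stearoyl-CoA desaturase of the endoplasmic reticulum membrane, PTP4A1 (0.57) and KDELR3 (0.56), a receptor that returns proteins to the endoplasmic reticulum. HSPA8 was most like KPNA2 (0.71), EIF4G2 (0.68) and B3GNT5 (0.68), and HSP90AA1 was most like CHD4 (0.86), MORF4L1 (0.85) and ZFR (0.85). The values of HSP90AA1 are those of its main probe, with which its other probes did not move together. At day 90 the signal of that probe was lowest on slides 7 and 8 in each genotype, and the part of the slide in its likeness was not tested. For HSPB1 they were ZFP106, SLC26A5 and PER3 (0.60 to 0.68), for HSPB2 TANC2, PRKRA and SREBF2 (0.58 to 0.60), for HSPB3 UBE2D2, GRTP1 and MOCS2 (0.53 to 0.54) and for HSPB6 COX6B, USP5 and USP47 (0.61 to 0.63).

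The rest of the chaperone network, with its transcription factors and sarcomere partners, was read from lists of 109 genes, of which 91 were measured. In LW 40 of the 91 rose with age and 20 fell, and in MS 40 rose and 25 fell, with a median difference of 0.23 and 0.14. Over all probes, 21.8% rose and 23.5% fell in LW and 28.6% rose and 28.1% fell in MS, and the counts of the lists that follow are to be read beside these shares. Of 6 further symbols of small heat shock proteins, 1 was found by name among the probes and did not pass the filter, and the others were not found by name. Among the sarcomere partners of the small heat shock proteins, 9 of 12 rose in LW and 11 of 12 in MS, and none fell. These included SYNPO2, the myopodin that BAG3 binds, by 1.36 in LW and 1.44 in MS, BAG3 itself by 1.16 and 0.71, the ubiquitin ligase STUB1 by 0.55 and 0.98, and the autophagy receptor SQSTM1 by 0.73 and 0.55, and with the arrays scaled to their 75th percentile BAG3 rose by 1.38 and 1.15 and SQSTM1 by 1.01 and 1.03. For DES, the desmin gene, which was named after its values were seen, the differences were -0.02 and -0.11 under quantile normalization, and neither passed. With the arrays scaled to their 75th percentile 12 of 12 sarcomere partners rose in LW and in MS, DES among them.

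Of 21 genes for folding and the unfolded protein response in the endoplasmic reticulum, 12 fell and 3 rose in LW, 15 fell and 1 rose in MS, and 11 had the lower level in MS at day 110, where 23.5%, 28.1% and 15.2% of all probes passed in these directions. The disulfide isomerase PDIA6 fell by 0.94 in LW and by 1.17 in MS, the endoplasmic Hsp90 HSP90B1 by 0.74 and by 1.28, the calcium-binding chaperone CALR by 0.77 and by 1.22, and the transcription factor XBP1 by 0.64 and by 0.99. Under scaling to the 75th percentile 9 fell in LW and 13 in MS, with 2 rising in each. The log2 differences between the ages in LW and MS were then -0.66 and -0.82 for PDIA6, -0.38 and -0.74 for HSP90B1, -0.40 and -0.59 for CALR and -0.30 and -0.47 for XBP1. With this scaling 8 of the 21 had the lower level in MS at day 110, and CALR and XBP1 were no longer among them. None of the 21 genes differed between MS and LW at day 90 (limma, adjusted p below 0.01), where 12.8% of all probes did, 6.61% lower in MS. A count of 0 among 21 genes is not far from that share. All 3 probes of HSPA5 were lower in MS at that age.

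The other genes of the Hsp70, Hsp90 and DNAJ families were mixed. Their lists hold mitochondrial and endoplasmic members beside cytosolic ones. Some of the listed Hsp70 and DNAJ genes were also listed with the endoplasmic genes. Of 12 other genes of the Hsp70 family, 6 rose and 3 fell in LW, and 6 rose and 4 fell in MS. HSPA1A and HSPA1B, the inducible Hsp70 genes, which are near-identical copies whose probes may read both, rose by 2.17 and 1.70 in LW and by 1.1 and 1.00 in MS. HSPA9, the mitochondrial Hsp70, rose by 1.33 and 1.5, and the signal named HSPA6 fell by 1.4 and by 1.74 (-0.66 and -0.76 with another background correction). HSP90AB1, the constitutive cytosolic Hsp90, differed by -0.50 and -0.59, but by -0.16 and 0.13 under scaling to the 75th percentile. Of 22 DNAJ co-chaperones, which bring substrates to Hsp70, 11 rose and 2 fell in LW and 11 rose and 3 fell in MS, with DNAJB5 up by 1.54 and 2.04 (0.49 and 0.61 with another background correction) and DNAJA3 by 1.13 and 1.38. The heat shock factor HSF1 rose by 0.48 and 0.63. Of the same list, HSF2 differed by 0.38 and 0.004 and passed in LW only. HSBP1 differed by 0.06 and 0.30 and passed in MS only.

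Among 16 other co-chaperones of Hsp70 and Hsp90, 11 rose and 2 fell in LW, and 10 rose and 2 fell in MS. FKBP5, an Hsp90 co-chaperone and a known target of glucocorticoids, had the largest age change of all named genes, 4.45 (adjusted p = 3.39e-23) in LW and 5.36 (adjusted p = 8.24e-26) in MS. Its relative FKBP4 rose by 1.25 and 1.15. Of 9 chaperonin genes, 2 rose and 1 fell in LW and 1 rose and 2 fell in MS, but 7 of 9 rose in each under scaling to the 75th percentile. HSPD1, the mitochondrial Hsp60, rose by 0.44 in LW and 0.24 in MS under quantile normalization and by 0.74 and 0.75 under the other scaling.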

How the data were processed

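For each fetus the authors deposited the scanner output, with spot intensity values not normalized between arrays (Agilent Feature Extraction 10.10.1.1, per the submitters' processing notes), and a table of log2 values that the authors had quantile normalized, with 44368 spots. Rows of that table were matched by spot row number (median r with the scanner signal 0.814, against -0.00813 by feature number). Here, the background-corrected intensity was quantile normalized and log2 transformed, non-uniform spots (4 to 802 per array) were set to missing, and probes well above background on 80% of the arrays of at least 1 group were kept, 42436 of 60305. The number of fetuses limits the precision. The 8 groups were fitted with limma, without the study's random sow effect, and calls were made at an adjusted p below 0.01. Genes outside the 10 were named by a fixed rule, up to 4 per list with the largest mean age change of LW and MS, and 3 most alike per gene, each by its brightest probe. The members and lists were chosen with earlier results of these data known. Simulated data were used to test the fits. Alternatives changed the signal column, background correction, normalization, filter, slide, moderation, samples and probes. Fits ran in R 4.3.3 (limma 3.58.1), and summaries in Python 3.11.15 (pandas 2.3.3, numpy 2.4.6, scipy 1.17.1).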

Additional observations from a re-analysis of the deposited data

Results flagged for a closer look

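In 8 of the 80 combinations of gene and group, 1 fetus lay apart from the rest of its group by Dixon's test, where chance flags about 1 in 20 groups. These were the lowest MS fetus of day 110 for HSPB2 (13.60, the next at 13.93), the highest LWMS fetus of day 110 for HSPB3 (10.82, next 10.58), the lowest LWMS fetus of day 90 for HSPB7 (12.03, next 12.72) and the lowest MSLW fetus of day 90 for HSPB8 (14.11, next 14.64). The others were the highest LW fetus of day 110 for CRYAB (16.13, next 15.65), the lowest LW fetus of day 90 for HSPA8 (14.85, next 15.11), the highest MSLW fetus of day 90 for HSPA5 (13.59, next 13.04) and the highest MS fetus of day 110 for HSPA5 (12.31, next 11.91).

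In 2 of the 3 tests of a difference in age change between groups, HSPB2 passed: MS less LW (-0.58) and MS less LW sires (-0.36). By the dam's breed it did not (-0.22, adjusted p = 0.0487), and with the arrays scaled to their 75th percentile neither of the former passed (adjusted p = 0.0170 and 0.0703). The 3 tests use the same fetuses and are not independent. The probe of HSPB2 was found through lists that the study chose for such differences in these fetuses. The terms of sire and dam together make up the contrast of MS less LW.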

How the results depend on the processing

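Of 110 values for single genes, each recomputed under 13 to 18 alternatives (1610 values in all), 1543 kept their direction and side of the threshold, 20 no longer passed, 7 newly passed and 35 that passed under neither setting changed sign. The 5 that passed under 1 setting and changed sign were all under scaling to the 75th percentile: the age change of HSPB2 (0.10) and of HSPA8 (0.083) in LW, of HSPB8 (0.62) and of HSP90AA1 (0.20) in MS and of HSPA8 (0.041) in MSLW. Counts over the 8 genes found by name stayed within 1.5 times of their first value except as follows. The breed difference at day 90 had 5 genes with the slide as a block. The contrast of the age changes of both breeds had 0 under scaling to the 75th percentile and 2 with the LW and MS groups alone. The paternal genotype by age had 0 with the median signal, with the deposited values and under scaling to the 75th percentile. Of 45 correlated pairs, 2 passed with the median signal (both among the first 6) and 0 without MSLW_d90 replicate 2. The cause was not tested. Leaving out each MSLW fetus of day 110 changed no call. The replicate numbers only name the fetuses in accession order. No paired analysis was possible because these numbers pair no fetuses and the labels give no sow, and the slides, which groups share, were used as a block instead. The alternatives without MSLW_d90 replicate 2 and with probes named by gene identifier were chosen after seeing the data.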

Other observations

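The 91 measured genes of the lists include sarcomere genes and transcription factors beside chaperones. Of these, 12 had a different age change in the 2 breeds (limma, adjusted p below 0.01), 11 more negative in MS and 1, STUB1, more positive. Over all probes 5.95% passed, 3.39% more negative in MS and 2.56% more positive. The share of positive calls among all probes went from 43% to 61% under scaling to the 75th percentile. They included HSPH1, a nucleotide exchange factor of Hsp70 (-1.14), HSPA1A (-1.07), DNAJA4 (-0.96), HSPA13 (-0.77) and HSP90B1 (-0.54). All of these genes were singled out after their values were seen. TRAP1, the mitochondrial Hsp90, was above LW in MS by 1.11 at day 90 and by 2.02 at day 110, with a mean of 10.71 and an SD of 0.22 in MS and of 8.69 and 0.69 in LW at day 110.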
